A study of Mus musculus with 2 samples.

Results

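The genes described here encode enzymes that write and erase cytosine methylation in DNA, or proteins that help these enzymes. The question was where POU5F1 peaks lay around the genes. The 9 genes were taken by name. Of these, 5 are called writers here (Dnmt1, Dnmt3a, Dnmt3b, Dnmt3l and Uhrf1) and 4 erasers (Tet1, Tet2, Tet3 and Tdg), out of 22238 protein-coding genes annotated on the mouse genome build mm9. A peak was assigned to a gene when it overlapped the gene body or when its centre lay within 50 kb of any annotated transcript start of that gene. By this rule 7 of the 5515 peaks of the whole-series mm9 list belonged to the 9 genes. They were assigned to Dnmt3b, Dnmt3l, Tet1, Tet2 and Tet3, and Dnmt1, Dnmt3a, Uhrf1 and Tdg had none in that list.

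POU5F1 (OCT4), a POU-domain transcription factor of pluripotent cells, was mapped by chromatin immunoprecipitation and sequencing (ChIP-seq) in E14TG2a.4. This is a male mouse embryonic stem cell line of strain 129/Ola, for which the labels give an embryonic stage and an age of 3.5 days. The study has 1 group of 2 biological replicates of this line, with no treatment or mutation named in the labels. A control experiment that the labels name was not analysed here. The design holds no contrast between conditions, so no test was made and the values below describe the peak lists.

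In mammals DNA methylation lies mostly on CpG dinucleotides. DNMT3A and DNMT3B place new methyl groups, helped by DNMT3L, which has no catalytic activity of its own. DNMT1 copies the pattern to the new strand at replication, and UHRF1 brings it to hemimethylated sites. TET1, TET2 and TET3 oxidise 5-methylcytosine, and the glycosylase TDG removes the later oxidation products so that repair can restore cytosine.

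The mm9 list of replicate 1 had 1330 peaks, that of replicate 2 had 6324 and the combined one, called whole-series here, 5515. On mm10 the lists thresholded by irreproducible discovery rate (IDR), a measure of how alike peaks rank in repeated data, held 3994 peaks (optimal) and 2676 (conservative). Signal is the authors' own value per peak in a scaling that is not stated, so signals were set side by side within a list only. Ranks count from 1 for the highest signal of a list. The median signal of the whole-series list was 5.58. Read depth is unknown, and the number of peaks is no measure of it. As a reference for the cell type, the strongest whole-series peaks assigned to Pou5f1, Sox2 and Nanog, genes of the core pluripotency network, had signals of 27.9, 19.09 and 9.96 and ranks of 4, 35 and 430.

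There were 5 sites present both in the whole-series mm9 list and in the optimal mm10 list. Their sequences are shown because the account of the peaks on both builds turns on these sites. The sequences bear on the motif search and were not used to match sites between builds. Each is the 201 bp window around the peak centre on mm9 (NCBIM37), plus strand, named by its distance from the nearest start of the gene, with a minus sign for upstream. Capitals mark matches to the POU octamer with at most 1 mismatch or to the composite SOX-POU element with at most 3 mismatches, on either strand, and matches that overlap are run together.
Dnmt3b, −26.73 kb, chr2:153448353-153448553: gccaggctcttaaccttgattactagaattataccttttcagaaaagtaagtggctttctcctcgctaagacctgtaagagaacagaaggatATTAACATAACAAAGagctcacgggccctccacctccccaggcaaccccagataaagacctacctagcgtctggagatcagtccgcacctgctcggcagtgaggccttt
Dnmt3b, −6.21 kb, chr2:153468877-153469077: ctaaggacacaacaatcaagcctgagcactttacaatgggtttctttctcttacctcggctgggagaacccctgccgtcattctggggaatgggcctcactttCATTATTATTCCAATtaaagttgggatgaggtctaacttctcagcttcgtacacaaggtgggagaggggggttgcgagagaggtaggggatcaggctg
Dnmt3l, 41.5 kb, chr10:77559495-77559695: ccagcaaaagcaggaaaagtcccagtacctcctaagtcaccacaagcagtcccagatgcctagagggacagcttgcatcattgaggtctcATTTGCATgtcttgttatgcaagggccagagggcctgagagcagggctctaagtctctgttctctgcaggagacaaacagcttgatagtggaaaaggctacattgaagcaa
Tet2, 19.6 kb, chr3:133187697-133187897: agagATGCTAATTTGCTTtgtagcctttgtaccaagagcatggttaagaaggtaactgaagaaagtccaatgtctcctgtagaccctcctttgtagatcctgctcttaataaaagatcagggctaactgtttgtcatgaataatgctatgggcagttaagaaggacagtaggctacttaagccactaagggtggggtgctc
Tet3, 19.7 kb, chr6:83371912-83372112: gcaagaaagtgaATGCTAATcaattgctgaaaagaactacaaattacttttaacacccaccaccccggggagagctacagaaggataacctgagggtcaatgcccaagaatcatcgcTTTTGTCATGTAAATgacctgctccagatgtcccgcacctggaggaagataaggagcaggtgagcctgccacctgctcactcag

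In the whole-series list, 5 of the 9 genes had a peak (55.6%, 95% Clopper-Pearson interval 21.2 to 86.3%, covering counting error only), beside 28.5% of all protein-coding genes. In the replicate 1 list there were 3 of 9 (interval 7.49 to 70.1%), namely Dnmt3b, Dnmt3l and Tet2, beside 8.57% of all genes. In the replicate 2 list there were 6 of 9 (29.9 to 92.5%), which were the 5 whole-series genes and Dnmt1, beside 31.3%. The optimal mm10 list gave 4 of 9 (13.7 to 78.8%), namely Dnmt3b, Dnmt3l, Tet2 and Tet3, beside 20.5% of 17491 genes. The conservative list gave the same 4 genes, beside 14.5%. In each of these 5 lists the members' share was above that of all genes, and the interval of the members' share included it. The 5 lists come from the same 2 replicates, so they are not separate evidence. The genes were taken by name and are not independent draws, so the intervals are descriptive and serve as no test. The members were also long genes, with a median body of 45.7 kb against 15.5 kb for all protein-coding genes, so that more sequence was searched for each. The part of gene length in these shares was not tested.

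**Figure D1:**
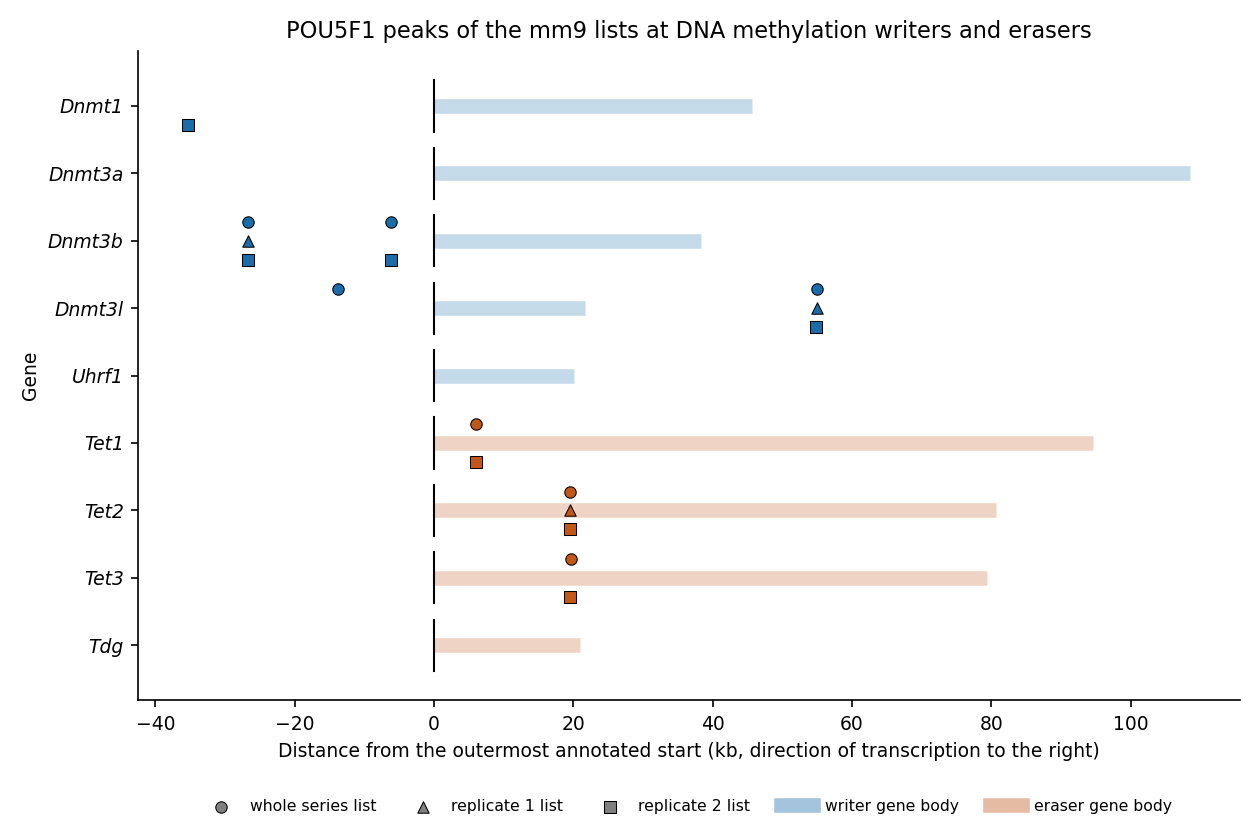
Peaks of the 3 mm9 lists drawn by distance in kb from the outermost annotated start of each gene, with transcription to the right, bars for gene bodies (blue writers, orange erasers) and one symbol per list. The marks of Tet1, Tet2 and Tet3 lie on their bars, those of Dnmt3b, Dnmt3l and Dnmt1 lie off theirs, and Dnmt3a, Uhrf1 and Tdg carry no mark.

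Among the writers, Dnmt3b, the de novo methyltransferase of the early embryo, had a pair of peaks, both upstream of its body (chromosome 2, 153475186 to 153513466, plus strand). The farther one (153448235 to 153448672) was centred at −26.73 kb and had a whole-series signal of 7.05, rank 1227 of 5515. Its signal was 6.84 in the replicate 1 list, rank 665 of 1330, and 9.83 in the replicate 2 list, rank 1996 of 6324. It stood at the middle of the replicate 1 list and within the top 31.6% of the replicate 2 list. This peak overlapped an exon of Commd7, a COMM-domain gene, whose start was nearer to it (10004 bp) than that of Dnmt3b.

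The nearer Dnmt3b peak (153468710 to 153469245) lay between genes at −6.21 kb, and Dnmt3b had the nearest protein-coding start. Its whole-series signal was 6.75, rank 1402. The replicate 2 list held it at 10.58, rank 1622, and the replicate 1 list did not hold it. Both replicates therefore carried the distant site and replicate 2 alone the near one.

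On mm10, the optimal list held both Dnmt3b sites, at 45.6 (rank 1328 of 3994) and 37.8 (rank 1951). The conservative list held only the farther one, as 2 overlapping entries of signal 45.6 and 22.9. In the relaxed lists, which give 300000 entries of peaks and background for each replicate, the farther site ranked 439 in replicate 1 and 3249 in replicate 2. The nearer site ranked 1179 in replicate 2, and replicate 1 had 0 entries within 500 bp of its place. The order of the Dnmt3b sites by rank was thus opposite in the 2 replicates.

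Dnmt3l, which encodes the cofactor of the de novo enzymes, had peaks on both sides of its body (chromosome 10, 77504692 to 77526367, plus strand). The downstream peak (77559329 to 77559862) lay between genes, 33.2 kb beyond the gene's end and 41.5 kb from an internal transcript start. It entered through that internal start, being 54903 bp from the outermost one. Its whole-series signal was 7.97, rank 869, with 6.22 in the replicate 1 list (rank 904 of 1330) and 13.28 in the replicate 2 list (rank 898 of 6324). The nearest protein-coding start was that of Icosl, a costimulatory ligand gene, at 27490 bp. On mm10 this site had the highest signal among the members in the optimal list, 86.0 at rank 320, and ranked 454 and 278 in the relaxed lists of replicates 1 and 2. It was the member site with the best rank in replicate 2 on mm10.

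The upstream Dnmt3l peak (77490825 to 77491124) was the weakest of the 7, with a signal of 3.82, rank 5250, a deposited −log10 p of 6.23 and a q-value of 0.0049. It was centred at −13.72 kb, between genes, and by the GENCODE starts on mm9 that of Aire, the autoimmune regulator, was nearer at 10029 bp. Neither replicate list on mm9 held it. On mm10 the optimal list lacked it, while the conservative list held an entry of signal 28.8 (rank 2322 of 2676) whose relaxed ranks were 2647 and 5876. By the RefSeq starts on mm10, Dnmt3l itself had the start nearest to that entry, which lay at −14136 bp.

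Dnmt1, the maintenance methyltransferase (chromosome 9, 20711650 to 20757317, minus strand), had a peak in the replicate 2 list only (20792479 to 20792673). It was centred at −35.26 kb from the GENCODE start with a signal of 6.8, rank 4994 of 6324, and the start of S1pr2, a sphingosine phosphate receptor gene, was nearer. From the RefSeq start at 20764332 on mm9 the peak lay at −28244 bp, the distance used to match it on mm10. The corresponding relaxed entries ranked 4963 in replicate 2 and 100261 in replicate 1, so neither placed it among its strongest 3994. The nearest whole-series peak was 205.0 kb from the Dnmt1 start.

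Dnmt3a and Uhrf1 had no peak in any of the 5 lists. For Dnmt3a, the other de novo enzyme (chromosome 12, 3806007 to 3914443, plus strand), the nearest whole-series peak lay at −67.0 kb with a signal of 3.85. For Uhrf1 (chromosome 17, 56442744 to 56462909, plus strand) the nearest lay at −103.0 kb with a signal of 9.1. Relative to the 50 kb limit, the Dnmt3l site at 41.5 kb was the assigned peak farthest from its start. Among the members with no assigned whole-series peak, the Dnmt3a site at −67.0 kb was the peak closest to a start.

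Among the erasers, each TET gene had 1 whole-series peak. Tet2 (chromosome 3, 133126643 to 133207354, minus strand) had the peak with the highest signal of all 9 genes in that list. This peak (133187522 to 133188073) lay in an intron 19.6 kb from the Tet2 start. By deposited −log10 p the downstream Dnmt3l peak stood higher, at 35.592 against 30.607. The Tet2 peak had a whole-series signal of 8.14, rank 861. Its signal was 5.11 in the replicate 1 list, rank 1274 of 1330, and 11.93 in the replicate 2 list, rank 1301 of 6324. It was near the bottom of the replicate 1 list and within the top 20.6% of the replicate 2 list. On mm10 the optimal list gave it 73.3 at rank 456, and the relaxed lists ranked it 431 in replicate 1 and 426 in replicate 2. By deposited −log10 p the peak ranked 903 of 1330 in the mm9 list of replicate 1. That list and the relaxed mm10 list of the same replicate differ greatly in length, so places in them are not directly comparable.

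Tet3 (chromosome 6, 83312367 to 83391672, minus strand) had an intronic peak at almost the same distance, 19.7 kb (83371775 to 83372249). Its whole-series signal was 6.52, rank 1615, and its replicate 2 signal 10.95, rank 1592. The mm9 list of replicate 1 did not hold it. On mm10 it had 61.0 at rank 718 of the optimal list, with relaxed ranks of 770 in replicate 1 and 700 in replicate 2. Both replicates thus ranked the site alike on mm10, while on mm9 only the shorter list lacked it.

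Tet1 (chromosome 10, 62267318 to 62361866, minus strand) had a peak of signal 6.75, rank 1402 (62355637 to 62355993). The replicate 2 list held it at 11.34, rank 1325, and the replicate 1 list did not hold it. It was the only one of the 3 TET peaks with no counterpart in either IDR list. Its place depends on the annotation. From the outermost GENCODE start it lay 6.05 kb inside the gene, in an intron, and from the RefSeq start (62350072 on mm9) it lay upstream, at −5743 bp. At that distance on mm10 the relaxed list of replicate 2 had an entry of rank 3716, 4 bp off. The nearest relaxed entry of replicate 1 ranked 18983 and was 404 bp off.

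Tdg (chromosome 10, 82092573 to 82113544, plus strand) had no peak in any of the 5 lists. The nearest whole-series peak was 92.3 kb from its start, with a signal of 10.57 and rank 319, and Hcfc2, a host cell factor gene, had the nearest start.

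**Figure D2:**
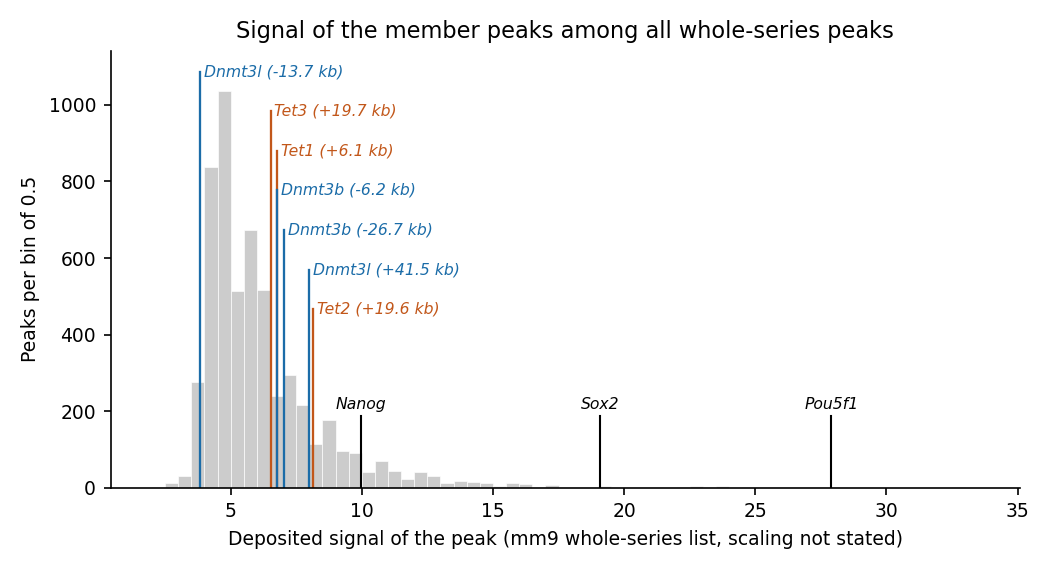
Number of whole-series mm9 peaks per bin of deposited signal (grey), with lines at the 7 member peaks (blue writers, orange erasers, distance to a start in brackets) and, in black, at the strongest peaks of Pou5f1, Sox2 and Nanog; line heights only separate the names. Between 6.52 and 8.14 lie 6 of the member peaks, above the list's median of 5.58 and below Nanog at 9.96, and the upstream Dnmt3l peak lies at 3.82.

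The position of the peaks relative to the gene body was counted next. All 3 eraser peaks overlapped the body of their own gene by the GENCODE annotation, and each had its own gene's start as the nearest one. Of the 4 writer peaks 0 overlapped the body, and 1, the Dnmt3b peak at −6.21 kb, was nearest to its own gene. The Tet1 peak is the exception if the RefSeq start is used, since it then lies upstream. By the RefSeq starts on mm10, the conservative entry at the upstream Dnmt3l site was also nearest to its own gene. The bodies of Tet1, Tet2 and Tet3 were 94.5, 80.7 and 79.3 kb long, against 38.3 kb for Dnmt3b and 21.7 kb for Dnmt3l, and the part of this length in the counts was not tested. Over the whole list, 41.8% of peaks overlapped a protein-coding body.

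In distance to a start of the gene, the median was 20.2 kb for the 4 writer peaks (6.21 to 41.5 kb) and 19.6 kb for the 3 eraser peaks (6.05 to 19.7 kb), so the ranges overlapped. None of the 7 peaks lay within 1 kb of a protein-coding start, where 8.25% of the whole list lay. The median distance over the whole list was 23.0 kb.

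In signal the groups also overlapped. The median of the strongest whole-series peak per gene was 7.51 for the 2 writers with a peak and 6.75 for the 3 erasers. In the replicate 1 list these medians were 6.53 and 5.11, with 1 eraser left, and in the replicate 2 list 10.6 and 11.3. The replicate 2 median of the writers includes Dnmt1, which no other mm9 list holds, and with Dnmt3b and Dnmt3l alone it was 11.93 against 11.34 for the erasers, so the order rested on Dnmt1. In the optimal mm10 list they were 65.8 for Dnmt3b and Dnmt3l and 67.2 for Tet2 and Tet3, as that list holds no Tet1 peak. With 1 to 3 genes on each side, no test of a difference in signal was made.

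Of the 7 peaks, 3 overlapped a peak of both mm9 replicate lists (Dnmt3b at −26.73 kb, Dnmt3l at 41.5 kb and Tet2), which are 2 writer sites and 1 eraser site. Over the whole list, 21.9% of peaks did so. The replicate 2 list held 6 of the 7, against 86.7% of all peaks, and the replicate 1 list held 3, against 22.7%.

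The relaxed mm10 lists allow each of the 9 members to be ranked in both replicates, by the strongest entry under the same assignment rule. Some other genes had no entry in one or both lists and were counted as ranking last. Tet2 ranked 431 and 426, Dnmt3l 454 and 278, and Tet3 770 and 700 in replicates 1 and 2, each at the same site. Dnmt3b ranked 439 and 1179, but at different sites, −26.7 kb in replicate 1 and −6.24 kb in replicate 2, and its shared site at −26.7 kb ranked 3249 in replicate 2. The shares of all genes with an entry as high were 2.7 and 2.56% for Tet2, 2.84 and 1.75% for Dnmt3l, 2.76 and 6.94% for Dnmt3b and 4.68 and 4.31% for Tet3. These 4 genes were the members with an entry among the strongest 3994 of both replicates that overlapped between them, beside 9.85% of all protein-coding genes. They divide into 2 writers and 2 erasers.

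The other 5 members had no such overlapping entry. Tet1 ranked 3072 and 3716, but the entries lay at 56.02 kb in replicate 1 and −5.74 kb in replicate 2. Dnmt3a ranked 3959 and 3967, just inside the strongest 3994, at −12.19 and −19.79 kb from an internal start, so the entries did not overlap. Uhrf1 ranked 13323 and 10651 at a shared entry near −15.5 kb. Dnmt1 ranked 30598 and 4963, and Tdg 48555 and 46672, which 82.4 and 80.9% of all genes matched or exceeded. The median over all genes was 12273 in replicate 1 and 12631 in replicate 2, so Uhrf1 stood near the middle and Tdg well below it.

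**Figure D3:**
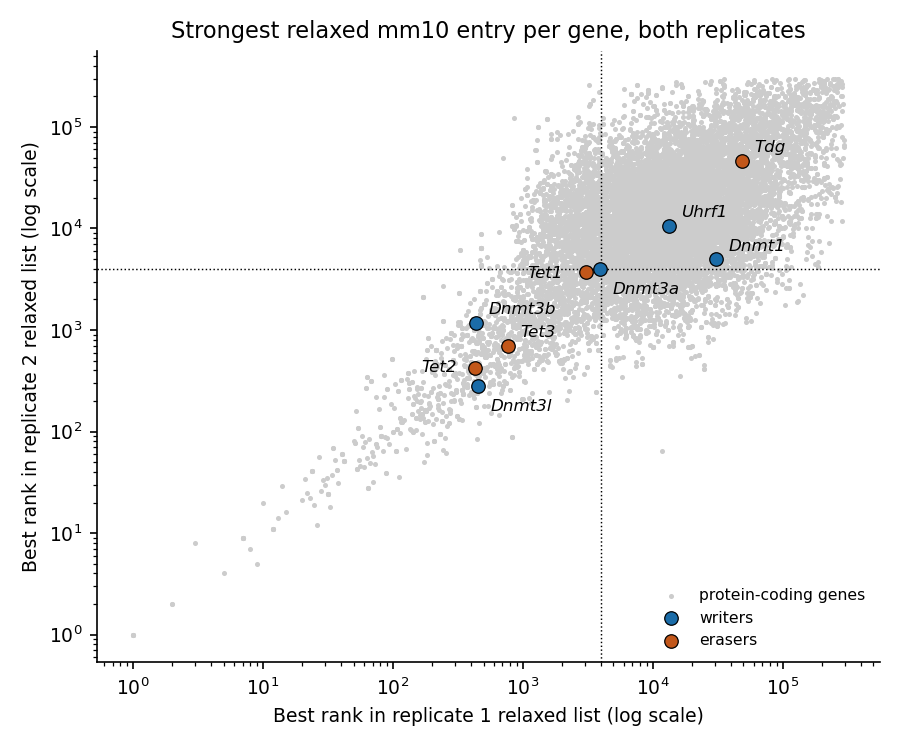
Best rank of each protein-coding gene with an entry in both lists, among the 300000 relaxed mm10 entries of replicate 1 (x axis, log scale) and replicate 2 (y axis, log scale). Grey marks all such genes, blue writers and orange erasers, with dotted lines at rank 3994. Dnmt3l, Tet2 and Tet3 lie at ranks 278 to 770 in both replicates, Dnmt3b lies at 439 and 1179 through different sites, Tet1 and Dnmt3a lie close to the dotted lines, and Tdg lies at 48555 and 46672.

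Distances from the same start were compared between builds without converting coordinates. RefSeq promoter sequences of the members, 16 in all for the 9 genes, each matched mm9 exactly once and so placed the same starts on both builds. The optimal mm10 peaks then lay 18 and −2 bp from the mm9 distance for the Dnmt3b sites, −10 bp for the downstream Dnmt3l site, −31 bp for Tet2 and 5 bp for Tet3. The 5 sites were therefore the same to within 31 bp on both builds.

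The share of genes with a peak depended on the window. With the GENCODE gene body alone, 3 of 4 erasers and 0 of 5 writers had a whole-series peak, beside 8.39% of all genes. Within 10 kb the counts were 3 erasers and 1 writer, beside 12.5%, and at 25 kb they were 3 and 2, beside 18.9%. At 100 kb they were 4 and 3, beside 43.8%. The TET genes entered through their GENCODE bodies at each window. From its RefSeq start the Tet1 peak lay upstream, at −5743 bp, so its place in the body count depends on the annotation. Tdg and Dnmt3a entered only at 100 kb.

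**Figure D4:**
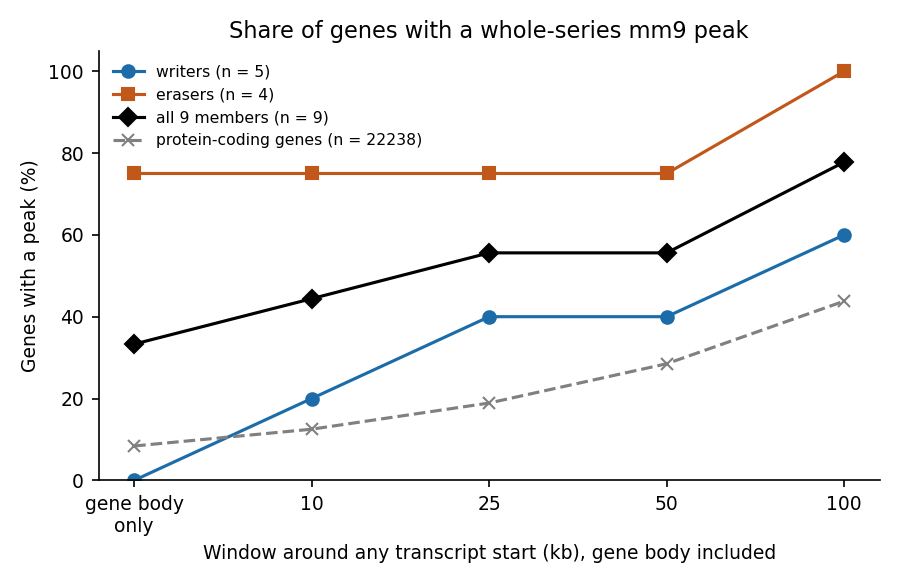
Percent of genes with a whole-series mm9 peak in the gene body or within the given distance in kb of a start, for 5 writers, 4 erasers, all 9 genes and all 22238 protein-coding genes. The eraser line, which counts Tet1 by its GENCODE body, stays at 75% up to 50 kb. The writer line rises from 0 to 40%, and the line for all genes rises from 8.39 to 28.5%.

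The 201 bp windows of the 7 peaks were searched on both strands for elements known from POU5F1 binding. The octamer ATGCAAAT was present without mismatch in 1, the downstream Dnmt3l site (77559585 to 77559592, minus strand), at −6 bp from the peak centre, counted along the chromosome to the middle of the match. It was present in 13.4% of all whole-series windows and in 1.40% of windows shifted by 2 kb. With 1 mismatch allowed it was present in 3 of 7 (Dnmt3l downstream, Tet2 and Tet3), against 53.7% and 19.9%.

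The composite SOX-POU element, in which a SOX site precedes an octamer so that its matches overlap those of the octamer, was present with at most 2 mismatches in 0 of 7 windows. It was present in 9.30% of all windows and 0.0725% of shifted ones. With 3 mismatches it was present in 3 of 7, against 28.6% and 1.11%. These matches were CTTTGTTATGTTAAT at the farther Dnmt3b site (minus strand, −1 bp from the centre), CATTATTATTCCAAT at the nearer one (plus strand, 10 bp) and TTTTGTCATGTAAAT at the Tet3 site (plus strand, 24 bp). In the Tet3 window the octamer part of that match, ATGTAAAT, is also a 1-mismatch octamer, and a second one, ATGCTAAT, lay at −84 bp. The Tet2 window had ATGCTAAT and, overlapping it on the other strand, AAGCAAAT, at −92 and −86 bp.

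Other elements were absent from the 7 windows. They were the palindromic MORE element ATGCATATGCAT (0.308% of all windows, 0 of the shifted ones), the PORE element ATTTGAAATGCAAAT with 2 mismatches (1.76 and 0.653%), the SOX site CATTGTT (6.73 and 3.16%), the KLF site GGGTGTGG (2.43 and 1.69%), the ESRRB site AAGGTCA (6.84 and 3.93%) and the STAT site TTCCNGGAA (1.03 and 0.526%). Over the whole peak, the STAT letters occurred once among the members, in the Tet1 peak at 62355670 to 62355678, against 1.78% of all peaks. An exact octamer, exact MORE or composite element with 2 mismatches was thus in 1 of 7 member windows and in 19.7% of all windows. Absence of these letters says nothing about the factors that bind them.

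In base composition the members resembled the list. The median GC content of their windows was 48.3% (42.8 to 49.8%) against 46.3% over all windows (interquartile range 42.3 to 49.8%), and the median number of CpG was 2 in both. The farther Dnmt3b window held 5 CpG, and the Dnmt3l downstream and Tet2 windows held 0. No member window overlapped an annotated untranslated region.

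Other genes of the pathway were taken from 5 lists of 41 genes, of which 21 (51.2%) had a whole-series peak, beside 28.5% of all protein-coding genes. The replicate 1 list gave 6 of 41, beside 8.57%, and the replicate 2 list 24, beside 31.3%. For 10 of the 21, the strongest peak had another gene's start nearer. Among 8 readers of methylation 2 had a peak, the zinc finger proteins Zbtb4 (7.64, with Polr2a nearest) and Zbtb38 (4.25). Among 8 cofactors of maintenance 6 had one. The highest was Dppa3, which protects methylation in the zygote, at 12.33 with Gdf3 nearest. Usp7, a deubiquitinase that binds DNMT1 and UHRF1, followed at 7.34 with 1810013L24Rik nearest.

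Of 14 repair and deaminase genes 8 had a peak. They were led by Xrcc1, the scaffold of base excision repair, at 15.86, though that peak lay at −29.93 kb with Zfp428 nearest. The cytidine deaminase Apobec1 shares the 12.33 peak of Dppa3, which is therefore not a separate site. Of 6 TET partners and cofactors 2 had one, Prdm14 (4.82), a repressor of de novo methylation in stem cells, and Cxxc4 (4.7), a CXXC protein linked to TET2. Of 5 genes of the methyl donor cycle 3 had one, among them Ahcy (8.22), the hydrolase of S-adenosylhomocysteine. The strongest peaks assigned to Xrcc1, Dppa3 and Ahcy were thus above the 8.14 of Tet2, the highest among the writers and erasers. Those of Xrcc1 and Dppa3 lay nearer to another gene's start.

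The gene whose strongest peak was most like that of Tet2 over the 3 mm9 lists, by Euclidean distance of log2 signal among 1719 genes with a peak in each list, was Prickle1, a planar polarity gene. The distance was 0.114, with signals of 8.22 in the whole series, 4.98 in replicate 1 and 12.85 in replicate 2. Aif1 and Apom came next at 0.139, through 1 peak that is also assigned to other genes around them and that had signals of 7.93, 5.6 and 12.09.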

How the data were processed

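POU5F1 ChIP-seq peak lists of 2 replicates of E14TG2a.4 cells were used as deposited. Per the file headers, the mm9 lists are broad peaks for each replicate and the whole series, and the mm10 lists are narrow peaks, relaxed for each replicate and thresholded by IDR for both. The aligner, peak caller, thresholds and the way replicates were combined on mm9 are not given in the sources used here. The signal of each peak is the authors' deposited value, with no stated scaling. On mm9 each deposited peak has a −log10 p-value and a q-value. The deposited mm10 lists give −log10 q and a score, which reached 1000 for all members' optimal peaks. No read counts were used, so depth is unknown.

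Peaks were assigned with Python 3.11.15, numpy 2.4.6 and pandas 2.3.3 by gene body overlap (1 bp) or a centre (mm9) or summit (mm10) within 50 kb of a start. GENCODE M1 gave genes on mm9. RefSeq on GRCm38.p6 gave them on mm10, where 4405 protein-coding genes without a listed start were left out. Coordinates were not converted between builds. RefSeq promoter sequences (250 bp before to 50 bp after a start) were placed on mm9 by exact match, and sites were matched within 500 bp of the same distance. Motifs were searched in NCBIM37, 100 bp on each side of the centre. The assignment and motif searches were checked on simulated data.

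The members and lists were chosen with earlier results of these data known. All 9 genes are named. The 2 highest-signal genes of each pathway list are named, except for genes that are not reported here, as are the 3 genes most like the member with the strongest peak. Alternatives tried were the window, the starts, peak thresholds, single replicates, overlap rules and motif mismatches. The RefSeq starts and the writer and eraser medians without Dnmt1 were added as alternatives after the data had been seen.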

Additional observations from a re-analysis of the deposited data

How the results depend on the processing

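The limits are few genes, 2 replicates, 1 value per peak and unknown depth. The whole-series count of 5 members fell to 3 with GENCODE gene bodies alone, Tet1 among them, although its peak lies upstream of its RefSeq start. The count ranged from 3 to 6 with either replicate list alone. The 3 came without replicate 2 and the 6 without replicate 1. With the other windows, starts and thresholds it was 4 to 7, and with RefSeq starts, an alternative chosen after seeing the data, it was 5. With the outermost start only, Dnmt3l stayed through its upstream peak of signal 3.82, since the downstream one lay 54903 bp away. The outermost start was not tried for the optimal mm10 list, where the only Dnmt3l peak lay 54553 bp from it. The 2 writers became 1 within 10 kb, 1 by nearest start and 0 with gene bodies alone, and 2 to 3 with single replicate lists. The 3 erasers became 4 at 100 kb and ranged from 1 (without replicate 2) to 3 with single replicate lists. The share of all genes, 28.5%, became 12.5% at 10 kb, 18.9% at 25 kb, 43.8% at 100 kb, 8.39% with gene bodies alone, 16.7% with the peaks at or above the median signal, 17.4% with −log10 p of at least 10 and 17.5% by nearest start, and 8.57 to 31.3% with single replicate lists. The 4 members of the optimal list became 2 with gene bodies alone.

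The 3 peaks shared by both replicate lists became 1 with reciprocal overlap of 50%. The log2 ratio of the writers' to the erasers' median signal was 0.154. With single replicate lists it ranged from −0.1 without replicate 1, where it reversed, to 0.354 without replicate 2. The reversal in the replicate 2 list rested on Dnmt1, without which the ratio was 0.073, an alternative chosen after seeing the data. In the optimal mm10 list, which holds no Dnmt1 peak and no Tet1 peak, the erasers' median was also the higher, 67.2 against 65.8. That eraser median covers Tet2 and Tet3 only, so it is not for the same genes as the mm9 one. With other measures of the whole-series peaks it was 0.032 to 0.42. Median distance was 10 kb for writers to the nearest start of any gene and 31.0 to 34.1 kb with single replicate lists, and for erasers 19.3 kb from the nearest edge of the peak and 19.5 to 19.6 kb with single replicate lists. The composite element was in 0 member windows with 2 mismatches and in 3 with 3. Some alternatives bring fewer peaks or a wider search, and the causes of these changes were not tested. No paired analysis was possible because there is 1 group.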
